A study of Homo sapiens with 8 samples.

Results

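The genes described here are 51 human genes of DNA damage response and repair, listed by name for their known roles, with no measured value in the rule. The list was nonetheless drawn up with earlier results of these data known. They were read in the 8 long-read RNA libraries through the annotated transcripts that belong to them, out of 62639 genes listed. Of the 51 genes, 44 had enough counts to be tested and 7 did not.

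MOLM-13 is an acute myeloid leukemia (AML) cell line. The cells carried a doxycycline (dox) inducible lentiviral shRNA, either against PTBP1 (shPTBP1, 4 libraries) or with a scrambled sequence (shSCR, 4 libraries, labelled as control), and RNA was taken from both groups after 9 days of dox. Besides the shRNA, each construct carried 2 marker genes, mCherry, which does not depend on dox, and the dox-dependent surface receptor ΔLNGFR. The 4 libraries of a group are labelled biological replicates of 1 line, with 1 shRNA in each arm, so an effect of the shRNA sequence itself and an effect of PTBP1 loss cannot be told apart, and p-values measure the spread between these libraries.

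PTBP1 is an RNA binding protein that binds pyrimidine-rich stretches of pre-mRNA and mostly represses the exons beside them. Cells mend DNA by several routes that use different proteins: double-strand breaks are sensed by checkpoint kinases and joined by homologous recombination or by end joining, damaged single bases are cut out by base excision, bulky lesions by nucleotide excision, replication errors by mismatch repair, DNA crosslinks by the Fanconi anemia proteins and misplaced ribonucleotides by RNase H2. Many of these proteins are made at a steady level and are regulated after translation, while others are made mainly when the cell copies its DNA.

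The sequences below are the places at which the transcripts discussed later part from each other. They were read from the GRCh38 genome on the plus strand, with exon bases in capitals and intron bases in lower case. In XRCC5, a retained-intron transcript called XRCC5-209 takes in 306 bases of intron 19 (chr2:216204016-216204321) before exon 20, while the protein-coding transcript XRCC5-201 joins exon 19 to exon 20. The window holds 225 bases of that intron and the 75 bases of exon 20, chr2:216204097-216204396.
XRCC5 intron 19 and exon 20: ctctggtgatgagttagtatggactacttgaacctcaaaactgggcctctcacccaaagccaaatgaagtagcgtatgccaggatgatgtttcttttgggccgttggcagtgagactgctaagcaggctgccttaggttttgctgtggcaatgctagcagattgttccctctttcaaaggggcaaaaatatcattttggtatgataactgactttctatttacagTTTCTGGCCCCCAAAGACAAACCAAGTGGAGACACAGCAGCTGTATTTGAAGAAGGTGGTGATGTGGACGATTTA
RAD51C was the member with the smallest p-value for its level, and its leading transcripts differ in where exon 1 and exon 2 end. RAD51C-235 reads 171 bases past the end of exon 1, and RAD51C-203 reads 147 bases past the end of exon 2. Each window holds the last 60 bases of the exon and only the first 60 bases after it. The windows are chr17:58692729-58692848 for exon 1 and chr17:58695130-58695249 for exon 2.
RAD51C end of exon 1: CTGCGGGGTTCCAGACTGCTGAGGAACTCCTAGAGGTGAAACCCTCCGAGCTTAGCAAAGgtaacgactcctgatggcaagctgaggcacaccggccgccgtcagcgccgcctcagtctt
RAD51C end of exon 2: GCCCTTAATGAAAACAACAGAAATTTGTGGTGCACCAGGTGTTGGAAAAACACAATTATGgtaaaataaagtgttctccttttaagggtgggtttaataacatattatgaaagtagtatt
RNASEH2B-201 has an 81-base exon 10 that is shown with the 100 intron bases before it, chr13:50953805-50953985.
RNASEH2B exon 10: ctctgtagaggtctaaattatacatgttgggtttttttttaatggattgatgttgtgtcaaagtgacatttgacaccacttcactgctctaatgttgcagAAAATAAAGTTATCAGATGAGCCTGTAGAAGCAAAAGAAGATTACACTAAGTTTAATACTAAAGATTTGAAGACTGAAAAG

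The 225-base XRCC5 window before exon 20 was searched for letters that PTBP1 is known to favour, on the strand of the gene only. The rest of the 306 retained bases, further from exon 20, was not searched. The window held TTCTCT 0 times and CTCTCT 0 times, and TCTT, which can overlap the longer motifs, 2 times. Among 718 windows of the same length before exons of the 51 genes, 17.3% held TTCTCT, 9.61% held CTCTCT and 85.9% held TCTT. The median over these windows was also 2 for TCTT. C or T made up 50.7% of the XRCC5 window, beside a median of 52.9% over all windows. These matches describe the letters only.

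The libraries held between 1528449 and 1613342 counts on annotated transcripts, and 12322 to 12589 genes had a count in each. A count of 0 in a library allows a level of up to 1.86 to 1.96 CPM (3 counts of the total), which covers counting error only. PTBP1 checked the labels: its normalized CPM (counts scaled to a common library size after edgeR's TMM factors) was 6.33, 9.91, 8.56 and 14.7 in the shPTBP1 libraries and 39.9, 57.3, 42.7 and 50.05 in the shSCR libraries. No shPTBP1 library overlapped a shSCR library, and the log2 fold change was -2.26 (edgeR quasi-likelihood test, adjusted p = 7.18e-05). All 12 myeloid and AML markers had counts, and 8 were tested, with 6 positive and 2 negative log2 fold changes (lowest -0.33) and 1 call, and with a summed level of 1089 to 1261 CPM in shPTBP1 and 927 to 1040 CPM in shSCR, so that this sum was higher in every shPTBP1 library. CD68, a lysosomal glycoprotein of monocytes, was called higher (log2 fold change 0.36, adjusted p = 0.0194), a call lost without shPTBP1 replicate 2 (adjusted p = 0.0561), shPTBP1 replicate 4 (0.0672) or shSCR replicate 4 (0.0591). The 3 T cell markers were at 0, the B cell, erythroid and epithelial markers had at most 2 counts in a library, and the 4 fibroblast markers summed to 17.1 to 21.1 CPM in shPTBP1 and 12.8 to 20.01 CPM in shSCR. The part of these markers in the results that follow was not tested.

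None of the 44 tested genes was called lower or higher in shPTBP1 at an adjusted p under 0.05 (0 lower and 0 higher by edgeR, and 0 by DESeq2 among the 34 to which it gave an adjusted p). Over all 7597 genes tested, 5.54% were called, 3.19% lower and 2.36% higher. In simulated data the same test called 30 of 100 genes changed by 0.58 on the log2 scale, and 67 of 100 changed by 1.00. The changed genes were drawn at random from all genes tested, so these are not the rates of the members. The median SE was 0.136 for the members and 0.171 for all genes tested. A gene without a call can therefore still have changed. At an unadjusted p under 0.05, edgeR found 1 member, RAD51C, which is 2.27% of those tested beside 19.2% of all genes, and DESeq2 found 1. The log2 fold changes were positive for 22 members and negative for 22, with a median of -0.0055 beside -0.00014 for all genes, and ran from -0.55 to 0.35. In 1 member the values of both groups did not overlap, beside 12.7% of all genes tested. Since the members were listed with earlier results of these data known, these percentages cannot be read apart from that choice.

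The bounds on these differences were narrow for most members. The 95% confidence interval of the fold change lay within 2-fold either way for 40 of the 44 members (90.9%, beside 84.8% of all genes tested), and within 1.5-fold for 31. The estimate itself was under 1.2-fold either way for 35 members (79.5%, beside 67.7%). The tightest was XRCC6 with an SE of 0.06 on the log2 scale and the widest was FANCA with 0.38. The plot of fold changes shows these intervals by role.

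**Figure D1:**
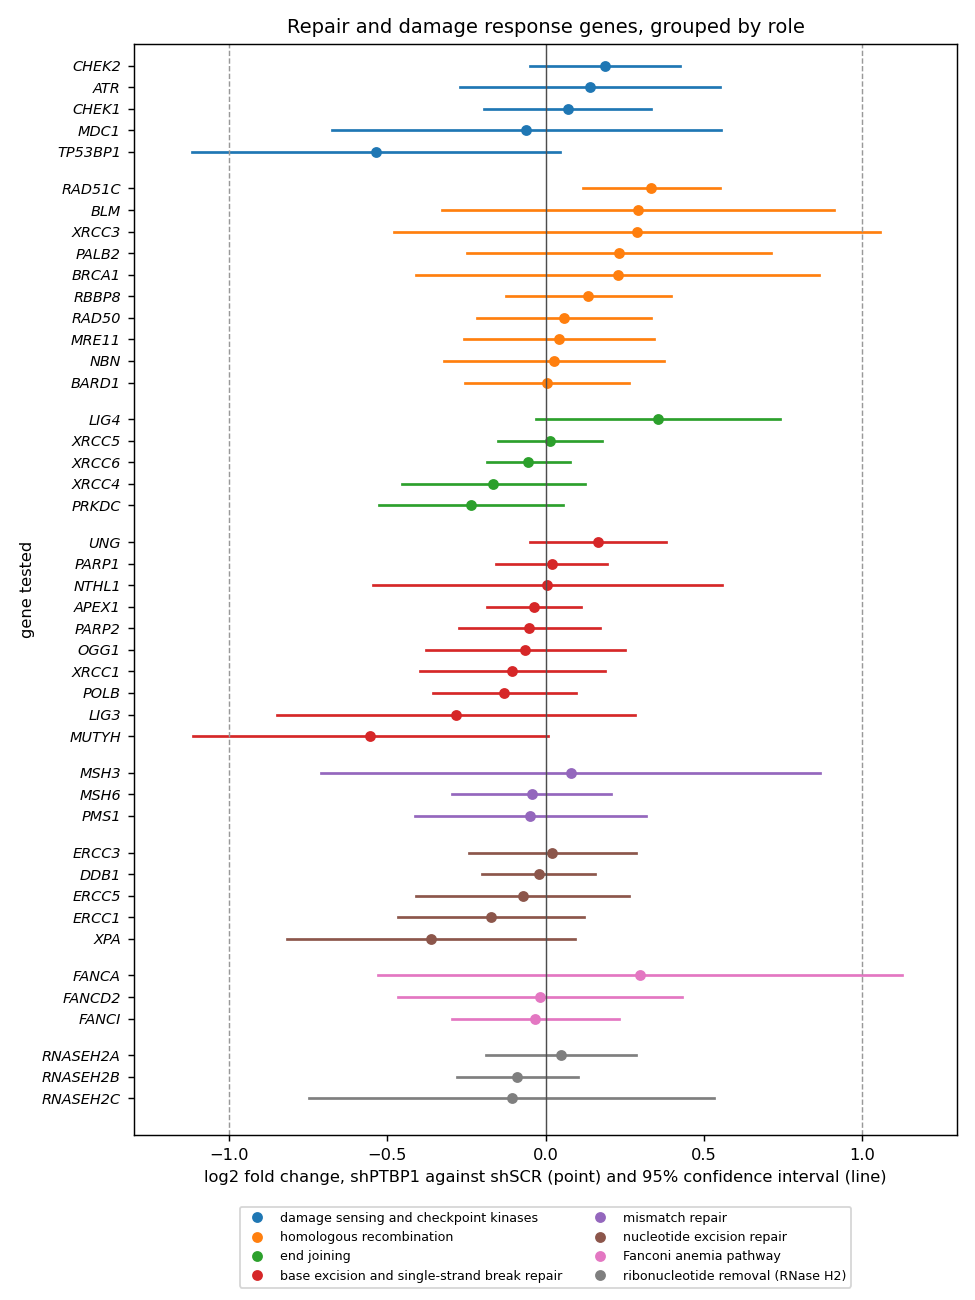
Log2 fold change of each of the 44 tested genes, shPTBP1 against shSCR, on the horizontal axis, with a point for the edgeR estimate and a line for its 95% confidence interval, coloured by role. The estimates run from -0.55 (MUTYH) to 0.35 (LIG4), dashed lines mark a 2-fold change, and RAD51C is the only gene whose interval does not reach 0.

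Among the damage sensors and checkpoint kinases, 5 of 6 genes were tested and none was called, with a median log2 fold change of 0.07. CHEK2, a kinase that passes on the signal of double-strand breaks, measured 71.9 ± 8.06 normalized CPM in shPTBP1 and 63.2 ± 5.63 in shSCR (SD, n = 4). CHEK1 and ATR, the kinases of stalled replication forks, had log2 fold changes of 0.07 and 0.14, and MDC1, a scaffold at breaks, of -0.06. ATM, the kinase that starts the response to breaks, was under the count filter with 31 counts in all in shPTBP1 and 26 in shSCR, a ratio of 1.18 with a counting interval of 0.676 to 2.06.

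TP53BP1, a scaffold that steers breaks toward end joining, lay lowest in this group. Its normalized CPM was 31.6, 19.8, 40.2 and 15.4 in shPTBP1 and 45.5, 47.1, 38.01 and 24.4 in shSCR. The groups overlapped and each spanned a wide range. The log2 fold change was -0.54 (95% confidence interval -1.12 to 0.04, adjusted p = 0.2995). One transcript carried most of the spread: the retained-intron transcript TP53BP1-212 had 0, 0, 30 and 0 counts in the shPTBP1 libraries and 40, 31, 29 and 0 in the shSCR libraries, so that it was at 0 or between 29 and 40 counts. Summed without transcripts at 0 in 1 library and at 20 or more in another of the same group, a setting chosen after the data were seen, the log2 fold change of TP53BP1 was -0.07. TP53BP1 shares exon bases with TUBGCP4 on the other strand, and whether the counting used strand is not given in the sources used here.

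None of the homologous recombination genes was called. All 10 tested genes of 12 had a positive log2 fold change, with a median of 0.18, from 0.0049 for BARD1, the partner of BRCA1, to 0.33 for RAD51C. BRCA1, which promotes resection of broken ends, had 0.23 (SE 0.30) and PALB2, which bridges BRCA1 and BRCA2, had 0.23 (SE 0.22). The MRE11 complex, which binds and trims broken ends, lay close to 0, with 0.04 for MRE11, 0.06 for RAD50 and 0.03 for NBN, and RBBP8, its cofactor in resection, had 0.13.

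RAD51C, a protein of homologous recombination, stood out among these genes. Its normalized CPM was 72.1, 73.3, 79.0 and 88.4 in shPTBP1 and 63.3, 56.7, 62.0 and 66.1 in shSCR. Every shPTBP1 library lay above every shSCR library. The log2 fold change was 0.33 ± 0.10 (SE), a 1.26-fold difference with a 95% confidence interval of 1.08 to 1.47. The exact two-sided permutation test gave p = 0.0286, the smallest that 4 against 4 libraries can give. Any groups without overlap reach this p, so it adds nothing to the separation itself. After adjustment over all genes the edgeR test did not pass (adjusted p = 0.0755, and 0.0597 to 0.216 over the other settings and left-out libraries). Groups that do not overlap with shPTBP1 higher made up 6.32% of all genes tested, and those that do not overlap in either direction 12.7%.

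The shares of the RAD51C transcripts overlapped between the groups. RAD51C-203, a 2-exon transcript with the exon 2 extension, held 33.5% ± 2.75 of the gene's counts in shPTBP1 and 36.2% ± 5.12 in shSCR (SD, n = 4). RAD51C-235, a 9-exon transcript annotated to nonsense-mediated decay with the exon 1 extension, held 33.9% ± 1.601 and 33.7% ± 7.23. RAD51C-201, the 9-exon coding transcript, held 21.6% ± 1.46 and 17.8% ± 4.89.

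XRCC3, which binds RAD51C, and BLM, a helicase that dissolves joined DNA molecules, were low and spread widely. XRCC3 measured 7.59, 5.29, 9.87 and 7.68 normalized CPM in shPTBP1 and 7.37, 7.004, 2.67 and 7.70 in shSCR. The groups overlapped, and shSCR replicate 3 lay below the others (log2 fold change 0.29, adjusted p = 0.725, and 0.05 without that library). BLM measured 17.1, 11.2, 13.8 and 6.40 in shPTBP1 and 11.1, 10.2, 8.67 and 9.62 in shSCR. Its shPTBP1 libraries held both the highest and the lowest value (log2 fold change 0.29, adjusted p = 0.643, and 0.08 without shPTBP1 replicate 1).

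Of the recombination genes under the filter, BRCA2, which acts after resection, had 2 counts in shPTBP1 and 1 in shSCR. XRCC2, which also acts in recombination, had 31 and 56 counts, a ratio of 0.546 with a counting interval of 0.340 to 0.862. Its libraries held 4, 0, 6 and 21 counts in shPTBP1 and 19, 31, 3 and 3 in shSCR. The high libraries were those in which the transcript XRCC2-203 had counts (17, 14 and 23), and it was at 0 in the other 5 libraries, so the counting interval does not cover the spread between libraries.

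In end joining, all 5 genes were tested and none was called. XRCC6 (Ku70) and XRCC5 (Ku80), which together ring the broken end, had log2 fold changes of -0.05 (95% confidence interval -0.19 to 0.08) and 0.01 (-0.15 to 0.18). XRCC4, which holds the ligase, had -0.17 (-0.45 to 0.12).

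PRKDC, the catalytic subunit of the DNA-dependent kinase that Ku recruits, measured 84.2, 66.7, 71.1 and 62.7 normalized CPM in shPTBP1 and 104.5, 76.4, 85.4 and 68.7 in shSCR. The groups overlapped (log2 fold change -0.23, 95% confidence interval -0.53 to 0.06, adjusted p = 0.377), and without shSCR replicate 1 the log2 fold change was -0.11. LIG4, the ligase that seals the ends, measured 24.7, 19.2, 22.4 and 20.5 in shPTBP1 and 17.8, 15.3, 20.01 and 14.8 in shSCR. Only the lowest shPTBP1 library and the highest shSCR library overlapped, the log2 fold change of 0.35 was the highest of the 44 members, and it did not pass (95% confidence interval -0.03 to 0.74, adjusted p = 0.302).

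**Figure D2:**
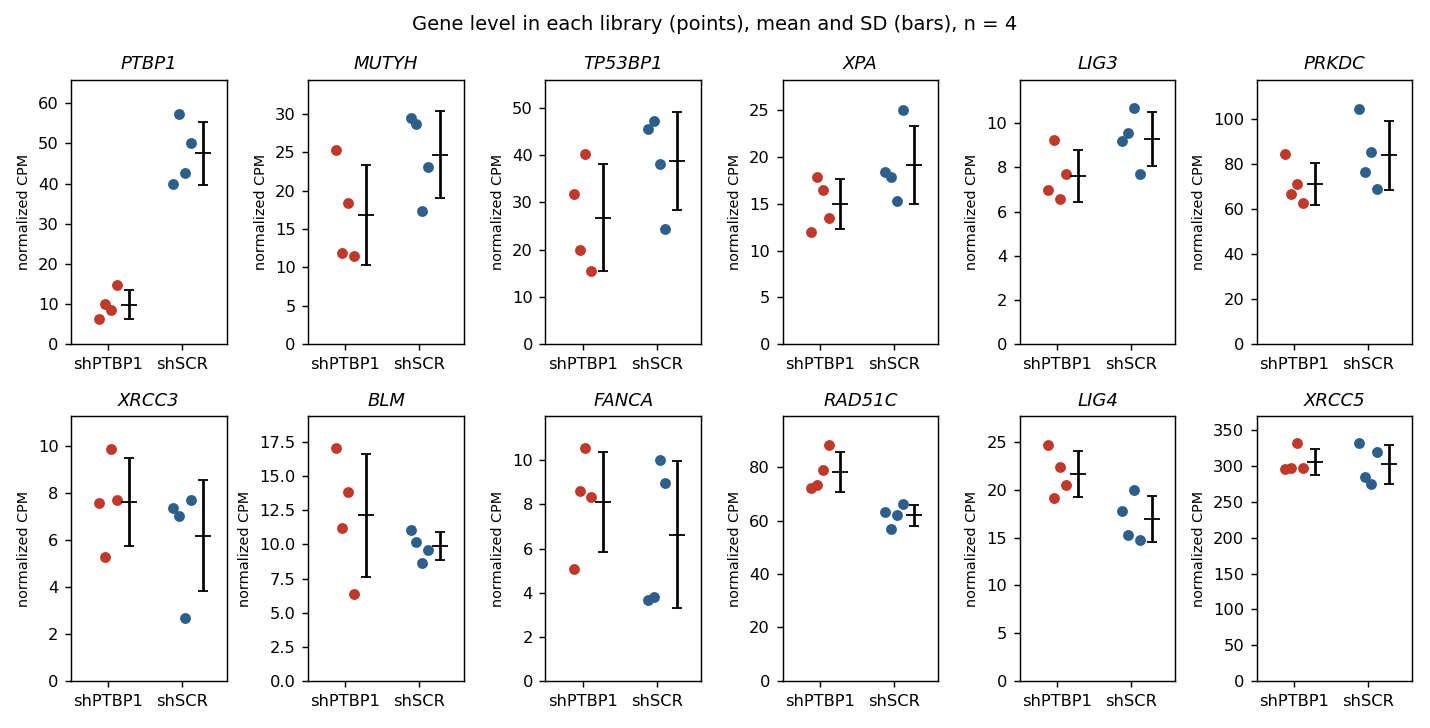
Normalized CPM (vertical axis, from 0) of PTBP1, the 5 tested genes with the lowest and the 5 with the highest log2 fold change, and XRCC5, in the 4 shPTBP1 (red) and 4 shSCR (blue) libraries, with the mean and SD in black. The groups separate in PTBP1 and RAD51C and overlap in the other 10 panels.

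In base excision and single-strand break repair, all 10 genes were tested, 7 had a negative and 3 a positive log2 fold change, and the median was -0.06. PARP1 and PARP2, which sense nicks, had 0.02 and -0.05, APEX1, the nuclease that cuts at sites that lost their base, had -0.04, and XRCC1, the scaffold of the pathway, had -0.10. POLB, the polymerase that fills the gap, had -0.13. The glycosylases UNG, which removes uracil, OGG1, which removes oxidized guanine, and NTHL1, which removes oxidized pyrimidines, had 0.17, -0.06 and 0.0054.

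MUTYH, the glycosylase that removes adenine paired with oxidized guanine, was lowest of the 44 members. It measured 25.3, 11.9, 18.4 and 11.5 normalized CPM in shPTBP1 and 29.5, 28.7, 17.3 and 23.1 in shSCR. The groups overlapped (log2 fold change -0.55, 95% confidence interval -1.11 to 0.01, adjusted p = 0.268, and 0.0903 without shPTBP1 replicate 1). LIG3, the ligase of this route, measured 6.96, 9.25, 6.58 and 7.68 in shPTBP1 and 9.22, 9.55, 10.7 and 7.70 in shSCR, with a log2 fold change of -0.28 (adjusted p = 0.629). MUTYH shares exon bases with TOE1 and LIG3 with CCT6B and RFFL on the other strand.

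In nucleotide excision repair, 5 of 8 genes were tested, with a median of -0.07. ERCC3, a helicase of TFIIH, DDB1, part of the ultraviolet damage sensor, ERCC5, a nuclease, and ERCC1, a partner of the other nuclease, had 0.02, -0.02, -0.07 and -0.17. XPA, which verifies the lesion, measured 12.02, 17.8, 16.5 and 13.5 normalized CPM in shPTBP1 and 18.4, 17.8, 15.3 and 25.0 in shSCR. The groups overlapped (log2 fold change -0.36, 95% confidence interval -0.81 to 0.09, adjusted p = 0.386). Under the filter, ERCC2, the other TFIIH helicase, had 11 and 16 counts in shPTBP1 and shSCR, ERCC4, the nuclease bound by ERCC1, 23 and 19, and RAD23B, which helps to recognise lesions, 3 and 2.

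Mismatch repair, the Fanconi anemia genes and RNase H2 held no call either. MSH6 and MSH3, which help to find mismatches, had log2 fold changes of -0.04 and 0.08, and PMS1 had -0.05. PMS2, which acts after a mismatch is found, was under the filter with 39 counts in shPTBP1 and 38 in shSCR. FANCD2 and FANCI, the pair that marks crosslinks, had -0.02 and -0.03. FANCA, part of the complex that modifies them, measured 5.06, 8.59, 10.5 and 8.32 normalized CPM in shPTBP1 and 3.69, 3.82, 10.003 and 8.98 in shSCR (log2 fold change 0.30, 95% confidence interval -0.53 to 1.13, adjusted p = 0.738). The shSCR libraries of FANCA fell into a low and a high pair. The subunits RNASEH2A, RNASEH2B and RNASEH2C had 0.05, -0.09 and -0.11.

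Shares of annotated transcripts were then compared, since PTBP1 acts on splicing. A share is the percent of a gene's counts on 1 transcript, and a call needed an adjusted p under 0.05 in edgeR's diffSpliceDGE and a change of at least 10 points. Of 51 isoforms tested in 19 of the genes, 1 was called, beside 1.12% of all 5464 isoforms tested. An unadjusted p under 0.05 was found for 5 of the 51, and 36 changed by under 5 points. Neither share was counted over all isoforms tested, so these counts have no background beside them. The other 32 genes had too few counts on a second transcript for this test.

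The called isoform was XRCC5-201, the full-length coding transcript of Ku80. Its counts were 225, 199, 204 and 210 in shPTBP1 and 139, 167, 143 and 149 in shSCR, which is 48.2%, 44.2%, 40.3% and 45.2% of the gene's counts beside 25.7%, 37.4%, 34.6% and 29.9%. Every shPTBP1 library lay above every shSCR library, and the mean share was 12.6 points higher (adjusted p = 0.00845). How often the shares of all isoforms tested do not overlap was not counted. The summed level of XRCC5 was 306 ± 18.2 normalized CPM in shPTBP1 and 303 ± 27.2 in shSCR (SD, n = 4).

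The shares of both retained-intron transcripts of XRCC5 were lower in every shPTBP1 library than in any shSCR library, but diffSpliceDGE called neither. XRCC5-209, the retained-intron transcript of 2 exons and 616 bases, had 135, 146, 192 and 137 counts in shPTBP1 and 236, 176, 157 and 221 in shSCR, counts that overlapped. Its share was 32.2% ± 4.14 beside 41.3% ± 3.12, a difference of -9.16 points with groups that lay close without overlapping (adjusted p = 0.136, and 0.00927 with limma's diffSplice). XRCC5-206, a retained-intron transcript of 18 exons whose last exon ends close to that of XRCC5-209, held 15.8% ± 1.33 beside 19.6% ± 2.24 (adjusted p = 0.723). XRCC5-202, a second coding transcript, held 2.98% ± 0.474 beside 1.66% ± 0.655 (adjusted p = 0.664).

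**Figure D3:**
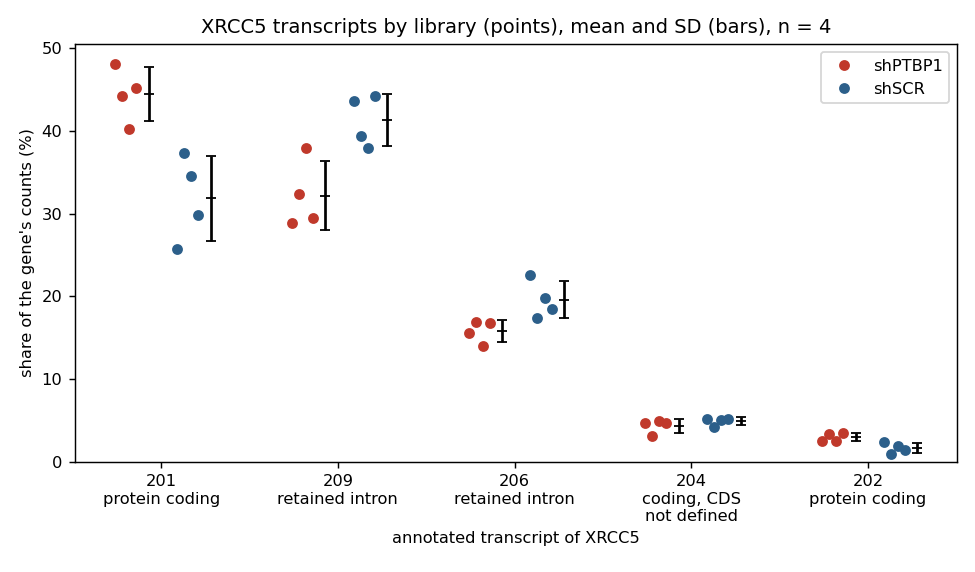
Share of the XRCC5 counts (percent, vertical axis from 0) on each of 5 annotated transcripts, for the 4 shPTBP1 (red) and 4 shSCR (blue) libraries, with the mean and SD in black. XRCC5-201 is higher in every shPTBP1 library (44.5% beside 31.9% on average) and XRCC5-209 is lower (32.2% beside 41.3%).

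The XRCC5 transcripts differ at both ends. XRCC5-201 has 21 exons and 3379 bases, with a last exon of 1106 bases of which 12 are coding, and an ATTAAA polyadenylation hexamer lies 27 bases before its end. XRCC5-209 starts 94668 bases downstream of the start of XRCC5-201, includes the part of intron 19 printed above, and stops 871 bases before the end of XRCC5-201. Neither AATAAA nor ATTAAA was in the last 40 bases of XRCC5-209 or XRCC5-206. The coding transcript XRCC5-202 ends at chr2:216206303, just past the end of XRCC5-201 at 216206293. It therefore holds the same ATTAAA, which falls just outside its own last 40 bases. The mean annotated length per count, a rough measure of the transcripts counted in a library, was 1817 to 1883 bases in shPTBP1 and 1833 to 1903 bases in shSCR, and its part in the XRCC5 shares was not tested.

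**Figure D4:**
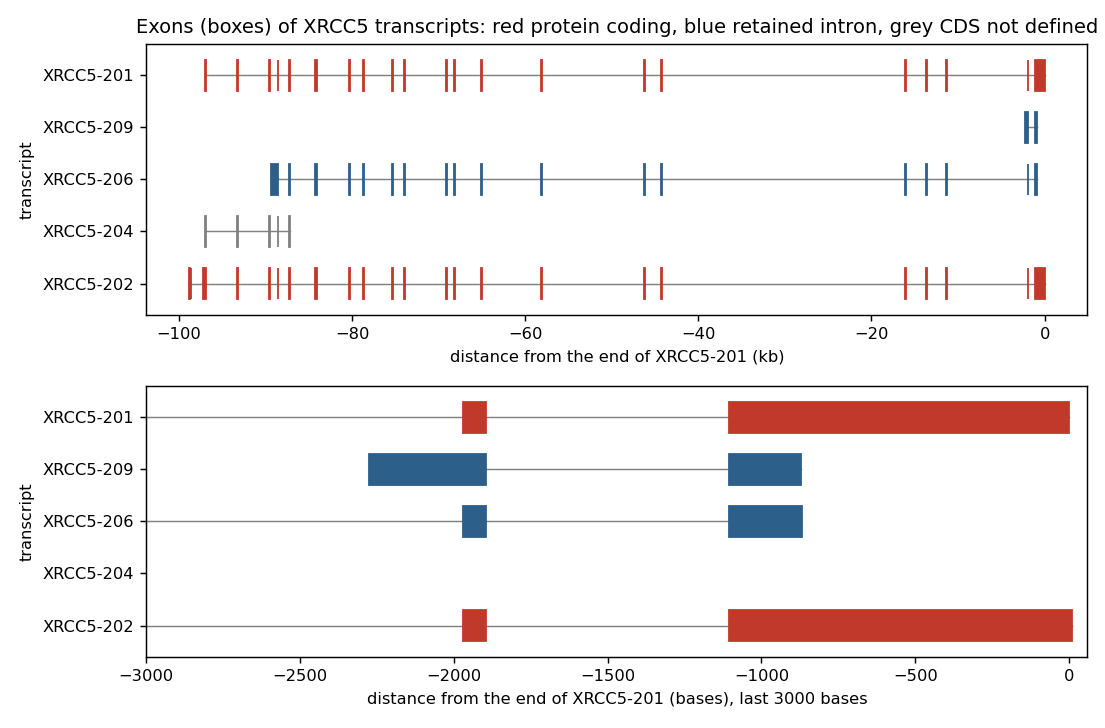
Exons (boxes) of 5 XRCC5 transcripts against the distance from the end of XRCC5-201, in kb for the whole gene (top) and in bases for the end of the gene (bottom), with protein-coding transcripts in red, retained-intron transcripts in blue and a transcript without a defined coding sequence in grey. XRCC5-209 consists of the widened box of exon 20 and a shorter last exon that stops 871 bases early.

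The XRCC5-201 call depended on single libraries. It was lost without shPTBP1 replicate 1 (11.3 points, adjusted p = 0.0731), shPTBP1 replicate 4 (12.3 points, 0.0632), shSCR replicate 1 (10.5 points, 0.168) or shSCR replicate 4 (11.9 points, 0.0758), and held without any of the other 4. The change stayed between 10.5 and 14.4 points in these 8 fits. With limma's diffSplice the adjusted p was 0.000209, and with the replicate number as a block it was 0.0506, which ended the call.

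Other large share changes did not pass. TP53BP1-212 had the largest change of the 51 isoforms, -24.4 points (adjusted p = 1), and its counts, given above, were at 0 in 4 of the 8 libraries. OGG1-203, a coding transcript, had 15, 11, 6 and 11 counts in shPTBP1 and 11, 19, 27 and 16 in shSCR and held 18.5% ± 5.26 beside 29.6% ± 8.67 of the gene's counts, with groups that overlapped (-11.1 points, adjusted p = 1). RNASEH2B-201, which carries the 81-base exon printed above, held 15.1%, 12.5%, 17.9% and 12.3% in shPTBP1 and 25.3%, 26.4%, 25.9% and 17.0% in shSCR. All shSCR libraries but replicate 4 lay above the shPTBP1 libraries (-9.16 points, adjusted p = 0.229, and 0.0310 with limma's diffSplice). XRCC6-202, the main transcript of Ku70, held 98.0% ± 0.43 in shPTBP1 and 97.8% ± 0.12 in shSCR.

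Counts on protein-coding transcripts were compared with counts on all other annotated transcripts of the same gene. Of 40 members tested, 1 was called, beside 0.454% of all 4627 genes tested (8 genes with a higher and 13 with a lower coding share). That member was again XRCC5, from the same counts as its isoform call. Its coding share was 50.7%, 47.6%, 43.1% and 48.8% in shPTBP1 and 28.5%, 38.9%, 36.8% and 31.9% in shSCR, without overlap, a difference of 13.5 points (adjusted p = 0.00175). How often the coding shares of all genes tested do not overlap was not counted. The XRCC5 call held in all 8 fits that left out 1 library (11.7 to 15.2 points, adjusted p 0.000979 to 0.0241) and was lost with the replicate number as a block (adjusted p = 0.0787).

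Most repair genes were read almost wholly as coding transcripts: 26 of the 40 had over 90% of their counts on them in both groups. The median difference was 0.19 points over the members and -0.10 over all genes tested, with 22 members higher and 18 lower. At an unadjusted p under 0.05 there were 3, XRCC5, BARD1 (97.8% beside 99.7%) and NBN (86.3% beside 93.6%). The share of all genes tested with such a p was not counted. The groups of NBN overlapped, with shPTBP1 replicate 3 at 72.1% and the other shPTBP1 libraries at 88.9% to 94.1%.

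By group means, RAD50, ATR and XRCC5 were read mainly as transcripts not annotated as protein coding. TP53BP1 and APEX1 were so read only in part, as were others, among them FANCD2, RAD51C, BLM, FANCA and RNASEH2C. The coding share of FANCA differed by 15.7 points (shPTBP1 minus shSCR), more than that of XRCC5, and that of FANCD2 by -11.7 points. The groups of both genes overlapped and neither difference passed (adjusted p = 0.659 and 0.596). RAD50, the hinge of the MRE11 complex, had 11.9% ± 2.26 of its counts on coding transcripts in shPTBP1 and 14.9% ± 3.60 in shSCR (SD, n = 4), and its leading transcript is annotated to nonsense-mediated decay. ATR had 44.8% ± 7.87 and 43.96% ± 13.7. The coding share of TP53BP1, 86.7% ± 24.0 beside 63.0% ± 25.3, followed the presence of TP53BP1-212 in a library. In APEX1, 77.9% ± 1.41 of the counts were on coding transcripts in shPTBP1 and 75.1% ± 1.93 in shSCR, groups that did not overlap but whose difference did not pass (adjusted p = 0.60). The groups of BARD1 did not overlap either, with shPTBP1 lower, and its difference did not pass (adjusted p = 0.479). They lay close, at 97.3% to 98.8% in shPTBP1 and 98.9% to 100% in shSCR, on 66 to 90 counts of the gene per library. As said above, how often such groups do not overlap over all genes tested was not counted.

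**Figure D5:**
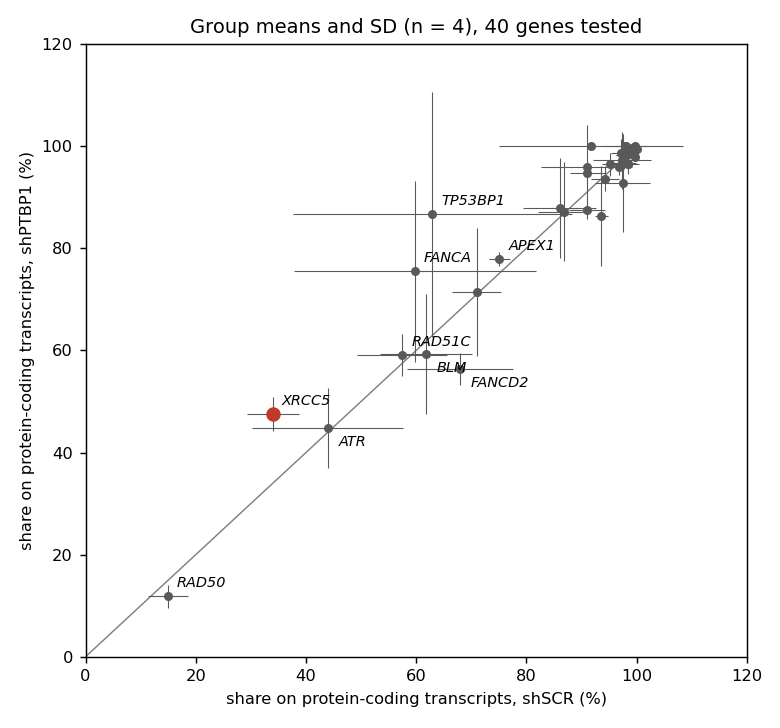
Mean share of counts on protein-coding transcripts in shSCR (horizontal axis, percent) and shPTBP1 (vertical axis, percent) for the 40 genes tested, with SD bars (n = 4) and the line of equal shares; XRCC2 had no count in shPTBP1 replicate 2, so its shPTBP1 mean is over 3 libraries with no SD bar. XRCC5 (red) lies above the line at 34.0% and 47.6%, RAD50 is lowest, and 26 genes cluster above 90%.

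The other genes of these pathways were read from a list of 81, of which 54 were tested. DDB2, the damage-binding partner of DDB1 and a known p53 target, was the only one called: it was lower (1 of 54 lower, 0 higher), with 63.9, 44.9, 59.9 and 55.7 normalized CPM in shPTBP1 and 96.5, 85.3, 63.4 and 92.4 in shSCR. The highest shPTBP1 library lay just above the lowest shSCR library, and the log2 fold change was -0.59 (SE 0.14, adjusted p = 0.0296). The call held only without shPTBP1 replicate 1 or shSCR replicate 3 and was lost without shPTBP1 replicate 2 (adjusted p = 0.0904), 3 (0.0720) or 4 (0.0793), or without shSCR replicate 1 (0.0745), 2 (0.0642) or 4 (0.0880). Over the 54 genes the median was 0.06, 11 had an unadjusted p under 0.05 (20.4%, beside 19.2% of all genes tested) and 9 did not overlap between groups (16.7%, beside 12.7%).

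Proliferation genes, many of them made in S phase as are several repair genes, were read beside the members. Of 20 listed, 18 were tested, with a median of 0.13 and 10 positive and 8 negative log2 fold changes. CCNE2, a cyclin of S phase entry, was called higher: it measured 168.3, 151.3, 146.8 and 138.9 normalized CPM in shPTBP1 and 111.2, 115.2, 106.0 and 116.8 in shSCR, without overlap (log2 fold change 0.43, adjusted p = 0.00926, and called in all 8 fits that left out 1 library). At an unadjusted p under 0.05 there were 7 of the 18 (38.9%, beside 19.2% of all genes tested), and 5 did not overlap between groups (27.8%, beside 12.7%). Their part in the levels of the repair genes was not tested.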

How the data were processed

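RNA of 8 MOLM-13 cultures was sequenced as nanopore cDNA libraries. The authors mapped reads to hg38 with minimap2, kept those of high mapping quality and used StringTie to count transcripts (versions and annotation are not given in the sources used here). The deposited table of counts holds 254070 transcripts, of which 252562 were matched to GENCODE 44 on GRCh38 by identifier without version and the other 1508 were left out. A second deposited table, labelled TPM, was checked to equal CPM, the count over the library total, within 5.0e-07, so it is not divided by transcript length and levels of different genes are not compared here.

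Transcript counts were summed per gene and tested with edgeR 4.0.16 (R 4.3.3): filterByExpr at its minimum count of 10, TMM scaling, quasi-likelihood test with group as the only term, Benjamini-Hochberg adjusted p under 0.05. Isoform and coding shares were tested with diffSpliceDGE, the latter in genes with a mean of at least 10 counts. DESeq2 1.42.0, limma 3.58.1, other filters and scalings, a replicate block and leaving out each library were alternatives. Single levels were compared with exact two-sided permutation tests. The genes named one by one are PTBP1, members called or without overlap, the 5 lowest and 5 highest log2 fold changes, called isoforms, the 5 largest share changes, and called genes of the other lists. Other genes are given by range and role. XRCC6-202, RBBP8, RAD50, ATR and APEX1 values, and the coding-share differences of FANCA and FANCD2, were added after they were seen. The members and lists were chosen with earlier results of these data known. The fits were tested on simulated data, in which the gene test missed many of the changed genes, as given above. Library pairs of a group differed by 2.03 to 3.73 times the counting noise, so none was a copy. Exons of 31 members overlap a gene on the other strand and of 9 a gene on the same strand.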

Additional observations from a re-analysis of the deposited data

Results flagged for a closer look

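In 114 groups of 4 library values, 1 value stood apart from the other 3 in 7 groups, and chance gives about 1 in 20. BRCA2 was at 1.32 normalized CPM in 1 shPTBP1 library and at 0.614 in 1 shSCR library and at 0 in the rest, which is 2 counts and 1 count. XRCC5 was at 333.1 normalized CPM in the highest shPTBP1 library, beside 295.5 to 297.7 in the others. XRCC3 was at 2.67 normalized CPM in the lowest shSCR library, beside 7.004 to 7.70, and FANCD2 at 23.1 beside 28.3 to 29.3. TP53BP1-212 held 49.2% of its gene's counts in 1 shPTBP1 library and 0% in the other 3. RNASEH2B-201 held 17.0% in the lowest shSCR library, beside 25.3% to 26.4%.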

How the results depend on the processing

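No member was called lower or higher under any setting run: 0 lower and 0 higher with DESeq2, its size factors in edgeR, other filters, limma-trend, a replicate block, and each library left out. The median log2 fold change of the members was -0.053 with a mean of at least 50 counts, -0.045 with limma-trend, and -0.047 to 0.025 without 1 library. Genes called lower over the whole table were 157 with DESeq2 (242 with edgeR), and without 1 library 107 to 190 were lower and 77 to 168 higher, the fewest without shPTBP1 replicate 3. Isoforms called were 154 with limma's diffSplice, 28 at a minimum change of 20 points and 39 to 55 without 1 library. Member isoforms called were 0 at 20 points, and 0 to 1 without 1 library. Genes called for the coding share were 16 to 33 without 1 library, and members 1 to 1.

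Same-numbered libraries did not deviate together over all genes tested (correlations -0.03 to 0.01). A correlation over all genes cannot show whether such libraries share a deviation in some genes, so the block results are given beside the others. With a replicate block, 186 genes were lower and 137 higher, 50 isoforms and 20 genes for the coding share were called, and the members held 0 isoform calls and 0 coding-share calls: XRCC5-201 had an adjusted p of 0.0506 and the XRCC5 coding share one of 0.0787. Without transcripts that switch between 0 and 20 or more counts within a group (361 transcripts of 345 genes, 3 of them of members: APEX1-214, TP53BP1-212 and XRCC2-203), 321 genes were lower and 240 higher, a setting added after the data were seen. The cause of these changes was not tested. The confidence intervals of 4 tested members went past 2-fold: MUTYH, TP53BP1, XRCC3 and FANCA. The part of sequencing depth in these wide intervals was not tested.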
